A study of Mus musculus with 8 samples.

Results

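The 10 immediate early transcription factor genes Fos, Fosb, Fosl1, Fosl2, Jun, Junb, Jund, Egr1, Egr2 and Egr3 were examined in 8 lists of protein-binding sites from mouse embryonic stem cells. They were taken by name from the GENCODE M21 annotation, which holds 21951 protein-coding genes. A binding site was assigned to a gene when it overlapped the gene body or the region from 5 kb upstream to 1 kb downstream of any transcript start. By this rule the 10 genes held 49 of the called sites, and each gene held at least 1. Expression of the genes was not analysed here, so the values below describe occupancy of DNA and not transcription.

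All libraries came from the line E14Tg2a at passages 37 to 40. Pluripotent cells (ESCs) were grown with leukemia inhibitory factor (LIF), and the differentiating neuronal cells (NCs) were monolayers without LIF that received 1 µM retinoic acid (RA) for 48 h. Chromatin immunoprecipitation and sequencing (ChIP-seq) used antibodies against FGFR1, a growth factor receptor that also occurs in the nucleus, against the nuclear receptors RXR and Nur77 in both states, and against the histone variant H3.3 in NCs. FGFR1 in RA had 2 libraries, of which the second is titled as a second experiment, and each of the other 6 groups had 1 library made from chromatin of pooled plates. Libraries of a control antibody or of cells without the target protein were not analysed here, and the lists hold no expression markers by which the cell state could be checked.

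Immediate early genes are switched on within minutes of a stimulus, without new protein synthesis, by transcription factors already present in the cell. Growth factor signalling through the ERK kinases acts on serum response factor (SRF) and its ETS-domain partners at CArG boxes, and cyclic AMP and kinases of the RSK and MSK families act on CREB at the cyclic AMP response element (CRE). The FOS and JUN proteins pair through leucine zippers into the dimer known as AP-1, whereas the EGR proteins bind GC-rich DNA through zinc fingers. In stem cells these genes are known as readouts of FGF and ERK signalling, and Nur77 is itself the product of an immediate early gene.

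Depth differed between the libraries and touches every comparison below. It was inferred from the peak values as background fragments per kb, which were 2.71, 7.09 and 4.98 in the LIF libraries of FGFR1, RXR and Nur77. In NCs the corresponding densities were 4.16 and 6.78 in FGFR1 replicates 1 and 2 and 1.87 in the RXR library, and the Nur77 library had 3.82 and the H3.3 library 1.27. The lists held between 10634 and 46137 peaks, and the smallest number of fragments at any summit was between 4 and 8. A gene without a peak is therefore a gene at which no enrichment was detectable at that depth. FGFR1 replicate 2 stood apart from the other libraries: its median peak was 311 bp wide with 27 fragments at the summit, against 89 bp and 10 fragments in replicate 1. Long alternating purine-pyrimidine runs (tracts of at least 20 bp) lay in 1.26% of its peaks and in 21.1% to 51.7% of the peaks of the other 7 lists.

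The stretches of DNA printed next come from peaks described below. They are given with the mouse genome build mm10 (GRCm38), read 5′ to 3′ on the strand of the gene. The first 4 lie at or close to the starts of Fos, Jun, Junb and Jund, inside peaks of FGFR1 in RA replicate 2, and the fifth surrounds the summit that both FGFR1 libraries from RA shared in Fosb. Capitals mark matches to a CRE (TGACGTCA), its first 5 bases (TGACG, the short CRE word), the SP1 core (GGGCGG) or, in Jun, the related sequence TGACATCA, each searched on both strands. The full CRE contains the short word on both strands, so those matches overlap. The last is the stretch of the Jun coding sequence that lay inside peaks of RXR and Nur77 in LIF and of FGFR1 in RA replicate 1.
Fos promoter, chr12:85473690-85473889, plus strand: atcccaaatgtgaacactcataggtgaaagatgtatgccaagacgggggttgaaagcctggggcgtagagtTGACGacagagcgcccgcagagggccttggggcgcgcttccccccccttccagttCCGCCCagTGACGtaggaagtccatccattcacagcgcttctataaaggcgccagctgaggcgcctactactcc
Jun promoter, chr4:95052223-95052352, minus strand: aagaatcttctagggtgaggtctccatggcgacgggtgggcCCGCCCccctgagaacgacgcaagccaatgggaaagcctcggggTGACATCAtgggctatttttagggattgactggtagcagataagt
Junb promoter, chr8:84978749-84978908, minus strand: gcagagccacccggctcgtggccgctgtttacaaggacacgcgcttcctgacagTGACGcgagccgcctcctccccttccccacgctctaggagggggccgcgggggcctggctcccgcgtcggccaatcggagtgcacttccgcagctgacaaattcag
Jund CRE, chr8:70698724-70698753, plus strand: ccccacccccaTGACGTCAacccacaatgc
Fosb shared summit, chr7:19308717-19308817, minus strand: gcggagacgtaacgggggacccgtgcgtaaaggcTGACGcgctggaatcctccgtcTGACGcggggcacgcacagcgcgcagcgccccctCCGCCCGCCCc
Jun coding sequence, chr4:95050751-95050820, minus strand: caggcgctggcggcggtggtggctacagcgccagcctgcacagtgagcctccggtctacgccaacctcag

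In the full peak lists, FGFR1 was found at few of the genes in ESCs and at most of them in NCs. In LIF, 2 of the 10 genes held an FGFR1 peak (Jund and Egr2), against 28.3% of all protein-coding genes. In RA, 9 genes held one in replicate 1 (all but Egr3), with a background of 64.6%, and 7 in replicate 2 (Fos, Fosb, Fosl2, Jun, Junb, Jund and Egr1), with a background of 53.8%. The mean over the RA libraries was 8 ± 1.41 genes (SD, n = 2). Both RA values lay above the single LIF value by more than the gap between the replicates, but with 1 LIF library no test was possible, and the share of all genes rose as well. Scaled to the depth of the LIF library, replicate 1 kept 9 genes by either ratio of depth and replicate 2 kept 6 by the ratio of backgrounds and 7 by that of densities. Of all peaks, replicate 1 kept 99.96% by the ratio of backgrounds and 86.7% by that of densities, and replicate 2 kept 72.0% and 94.6%. Fos, Fosb, Fosl2, Jun, Junb and Egr1 had FGFR1 in both RA replicates and not in LIF, which makes 6 of 10 genes against 25.3% of all genes. The order depended on list length in replicate 1. With each list cut to its 10634 strongest peaks, LIF kept 2 genes and replicate 1 had 0 (28.4% of all protein-coding genes). Replicate 2 had 6 (46.3%) in that setting, and 0 genes had FGFR1 in both RA replicates and not in LIF.

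RXR showed the opposite order. In LIF it had a peak at 8 of the 10 genes, all but Fosb and Jund, against 54.4% of all genes. In RA, Fosl1 alone held an RXR peak, against 35.0%. RXR was thus present in LIF and not in RA at 7 genes (background 23.9%), and no gene had it in RA only (background 4.43%). The RXR library from RA had far fewer background fragments than that from LIF. When the summit and background fragments of the LIF peaks were scaled down to the RA depth, 5 genes (Fosl1, Fosl2, Jun, Egr1 and Egr2) kept a peak if the ratio of the genome-wide backgrounds per fragment length was used, and 0 kept one if the ratio of background densities was used for the signal. These scalings kept 55.8% and 12.7% of all peaks of the LIF list. The difference between the states for RXR therefore cannot be told apart from the difference in depth.

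Nur77 had peaks at 3 genes in either state. In LIF these were Fosl1, Jun and Jund (background 41.7%), and in RA Fosl1, Jun and Egr2 (background 43.9%). Jund had Nur77 only in the LIF list (1 gene, background 11.7%) and Egr2 only in the RA list (1 gene, background 13.9%). H3.3, which was measured only in RA, had peaks at Fosl1 and Jun, 2 genes against 26.5% of all genes, in the shallowest of the libraries.

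**Figure D1:**
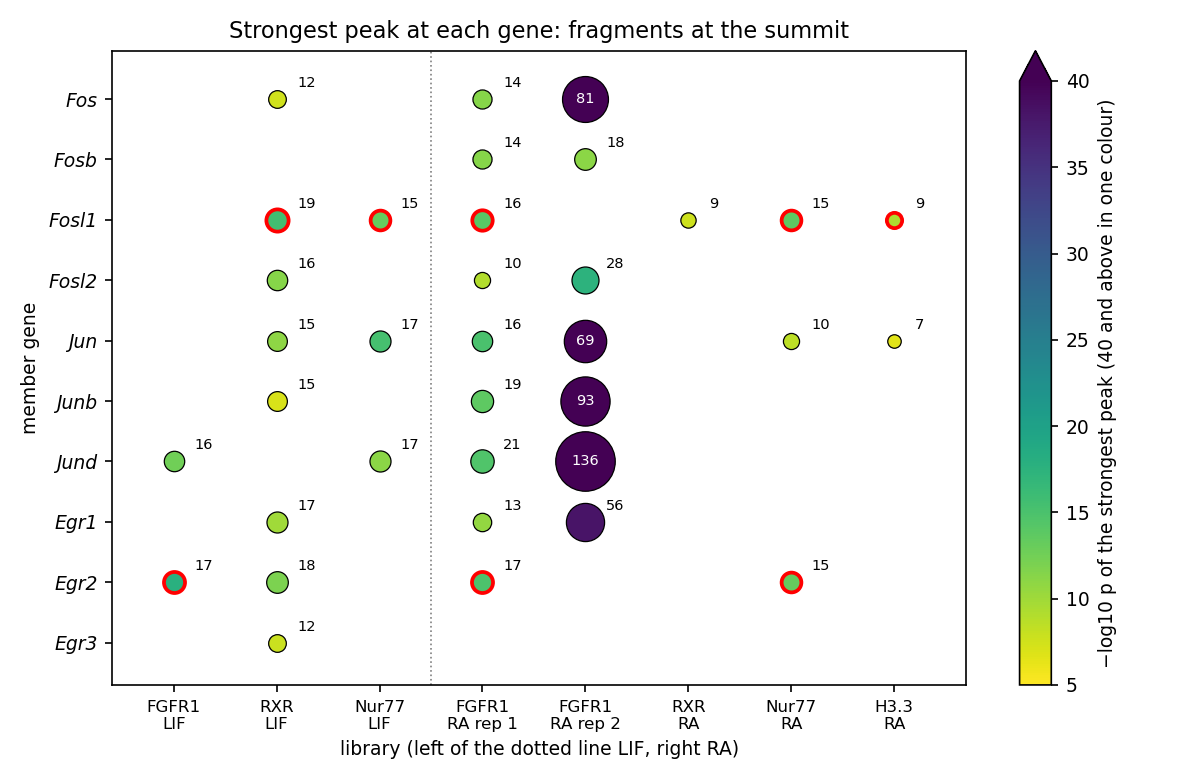
Strongest peak at each of the 10 genes (rows) in each of the 8 libraries (columns). The number and the area of a dot give the fragments at the summit, the colour gives the −log10 p on a scale that ends at 40, a red rim marks a peak with an alternating tract, and an empty place means no peak. The dots of FGFR1 in RA replicate 2 reach 136 fragments, whereas no dot of the other 7 libraries exceeds 21.

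**Figure D2:**
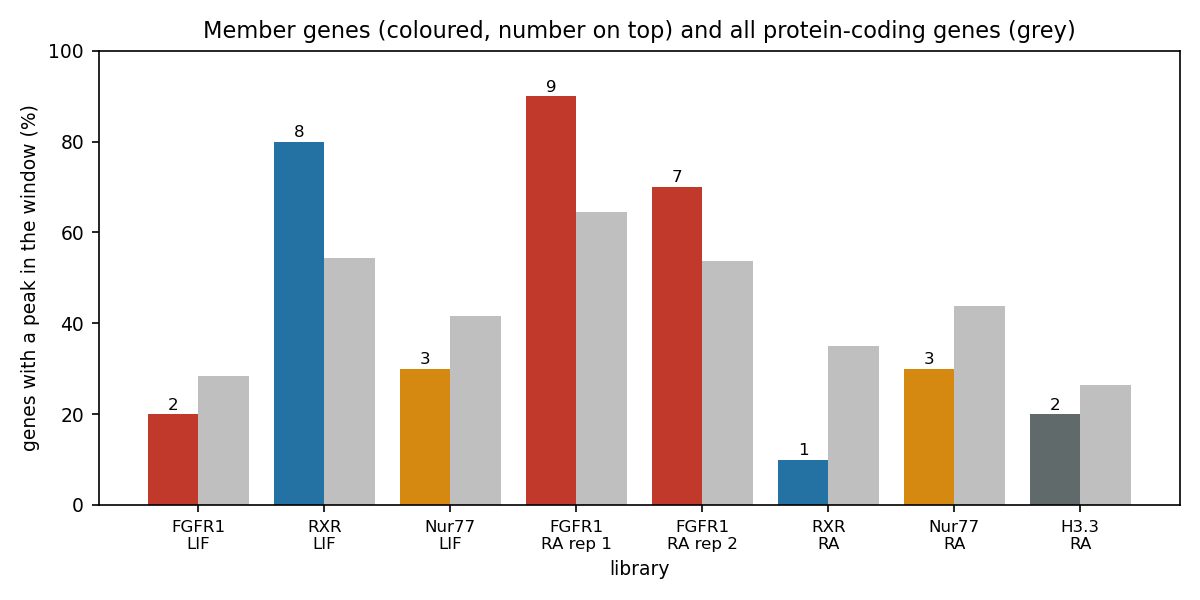
Share of genes with a peak in the window, in percent, for the 10 genes (coloured by antibody, the number of genes on top) and for all 21951 protein-coding genes (grey). The coloured bar is higher than the grey bar for RXR in LIF and both FGFR1 libraries in RA and lower for the other 5 libraries.

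The window is wide and includes the gene body, so that longer genes have more room for peaks. The 10 genes had a median length of 5287 bp, against 17403 bp for all protein-coding genes. Closer to the starts the picture for FGFR1 was much the same. Within 1 kb of a transcript start, FGFR1 in LIF had a peak at 2 genes (background 17.0%), and FGFR1 in RA at 8 genes in replicate 1 (background 50.8%) and at 7 in replicate 2 (background 49.6%), a mean of 7.5 ± 0.707 (SD, n = 2). RXR in LIF had one at 5 genes (Fosl2, Junb, Egr1, Egr2 and Egr3, background 42.6%) and in RA at Fosl1, 1 gene (background 23.4%). Nur77 had 1 gene in LIF (Jund, background 25.6%) and 1 in RA (Egr2, background 25.9%), and H3.3 had 1 (Fosl1, background 15.5%). For RXR in LIF the count near starts was thus close to the share of all genes. Starts inside a gene and of noncoding transcripts count here, for the 10 genes and for all genes alike. Fos in replicate 1 counted only through such a start, its summit lying 1202 bp from the nearest protein-coding start. So did Junb and Egr3 for RXR in LIF, at 1206 and 1346 bp, and Egr2 for FGFR1 counted through a protein-coding start inside the gene.

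The promoters of these genes differed from those of all protein-coding genes in median base composition. The 300 bp around the first start (250 bp before to 50 bp after) had a median GC content of 67.3% in the 10 genes and 55.0% in all protein-coding genes, and a median ratio of observed to expected CpG of 0.704 against 0.525. Over the 10 genes the GC content ran from 50.7% (Fosl1) to 71.0% and the ratio from 0.440 (Egr1) to 1.02, so single genes lay below the medians of all genes. Among the 9741 protein-coding genes with a CpG ratio of at least 0.6, 78.1% and 80.6% had an FGFR1 peak within 1 kb of a start in RA replicates 1 and 2, 29.3% in LIF, and 67.6% an RXR peak in LIF. Nur77 had one at 40.9% of the CpG-rich genes in LIF and 40.8% in RA, RXR at 37.6% in RA and H3.3 at 25.7%. Of the 10 genes, 8 belong to this class, and Jun (0.594) and Egr1 (0.440), both with FGFR1 near a start in each RA replicate, fall below its limit. The ratio was taken at the first start alone. The replicate 1 peak of Egr1 and its strongest replicate 2 peak lay at the second start, where the ratio was not measured. Within the class, 6 and 5 of the 8 genes had FGFR1 near a start in RA replicates 1 and 2, which is not above the shares of the class, and 4 had RXR in LIF. For FGFR1 in both RA replicates and not in LIF, over the whole window, the share of the class was 38.6%, and 4 of the 8 genes met it. The part of base composition in the counts was not tested.

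Strength told the FGFR1 replicates apart. In replicate 2 the strongest peak of a gene that had one reached a median −log10 p of 50.8 in the 7 genes and 25.2 over all 11817 protein-coding genes with a peak, with 69 and 32 fragments at the summit. In replicate 1 the corresponding medians were 13.7 over the 9 genes and 14.2 over 14179 genes, with 16 and 13 fragments. The strongest summits of the list in replicate 2 included Jund, at rank 190 of 14082 peaks, whereas in replicate 1 no peak at these genes ranked above 11059 of 46137. If each list was cut to its 10634 strongest peaks, replicate 1 held none of the genes (28.4% of all protein-coding genes) and replicate 2 held 6 of them (46.3%). This removes a far larger part of the list of replicate 1 than of replicate 2.

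**Figure D3:**
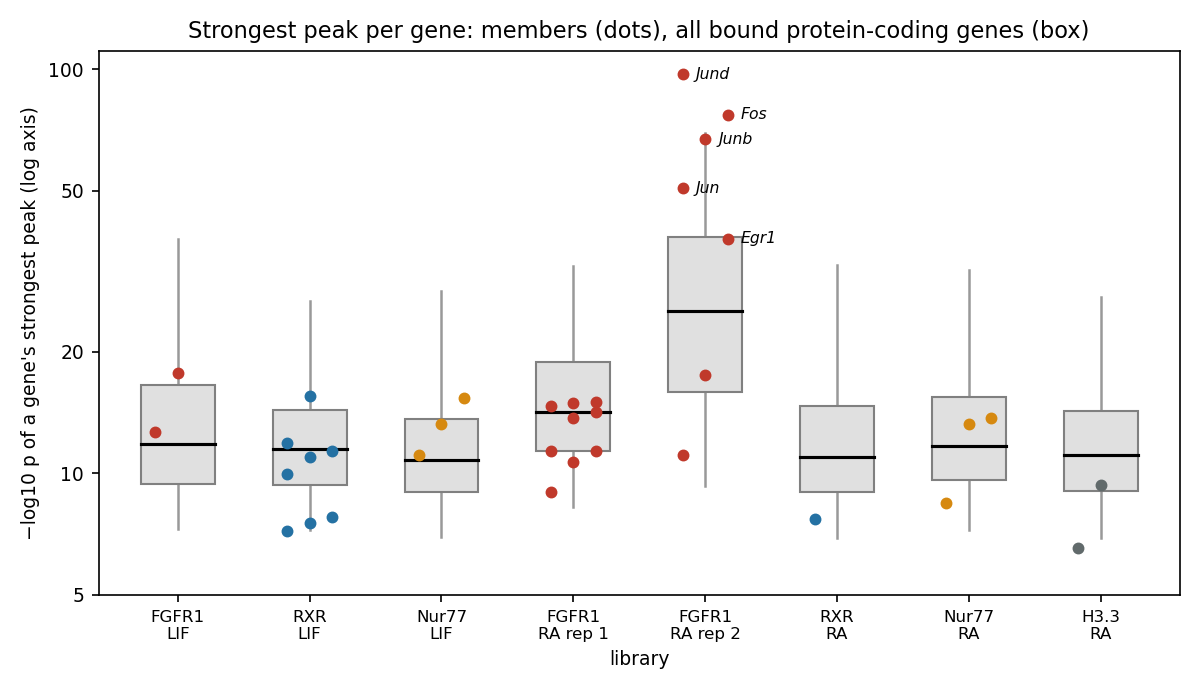
The −log10 p of the strongest peak per gene (log axis) in each library. Dots are the members with a peak, coloured by antibody, and the grey boxes give the quartiles with the median as a black line and the 5th and 95th percentiles as thin lines, over all protein-coding genes with a peak. Jund, Fos, Junb and Jun lie above the box of FGFR1 in RA replicate 2, and the dots of replicate 1 lie at or below 15.1.

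Jund, the JUN family gene with the most constant expression in most cells, had the strongest FGFR1 peak. In RA replicate 2 it covered 744 bp of chr8:70698388-70699131, with 136 fragments at the summit over a background of 10.9 fragments, an 11.5-fold enrichment and a −log10 p of 97.1, and its summit lay 8 bp downstream of the start. Replicate 1 had a peak with its summit at the same base, with 21 fragments and a −log10 p of 14.6. In LIF the FGFR1 peak had 16 fragments, a −log10 p of 12.6 and a summit at -74 bp, negative distances being upstream of the start. Jund was thus the only member at which FGFR1 was called in all 3 of its libraries.

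A further FGFR1 peak in replicate 1 had its summit at -194 bp from the Jund start, with 16 fragments and a −log10 p of 9.76, and its 101 bp around the summit held the full CRE printed above, a word present in 0.652% of the summits of that list. A Nur77 peak in LIF, with 17 fragments and a −log10 p of 11.1, had its summit at -150 bp and shared 34 bp with the FGFR1 peak of the same state. This was the only overlap of FGFR1 with RXR or Nur77 at the 10 genes in LIF (1 gene, background 20.8%). The RefSeq start of Jund lies at -1210 bp from the GENCODE start, so that all of these summits are within the transcribed region in that annotation. A second Nur77 peak in LIF, of 13 fragments and −log10 p 7.34, lay in the coding sequence, where the noncoding gene Gm11175 overlaps Jund.

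Junb and Jun, which encode the other JUN proteins, had FGFR1 at their starts in both RA replicates. At Junb, replicate 2 had 93 fragments over a background of 7.47, a fold of 11.1 and a −log10 p of 67.2, with the summit 28 bp downstream of the start. Replicate 1 had 19 fragments and a −log10 p of 13.7 there, with its summit 7 bp away. Neither Nur77 nor H3.3 was called at Junb, and RXR had only a weak peak in LIF, in the coding sequence, with 15 fragments and a −log10 p of 7.18. A further FGFR1 peak of replicate 2, with 28 fragments and a −log10 p of 9.05, lay 2177 bp into the gene at the start of a noncoding transcript.

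At the Jun start, replicate 2 had 69 fragments, a fold of 10.8 and a −log10 p of 50.8, with the summit 60 bp downstream, and a weaker peak of 32 fragments and −log10 p 14.9 with its summit at -362 bp. Replicate 1 had 16 fragments and a −log10 p of 15.1, with its summit 22 bp from that of replicate 2. The divergent noncoding gene Junos overlaps all 3 of these peaks, and ChIP-seq has no strand by which the signal could be given to one of the genes. The sequence TGACATCA, at -45 bp from the Jun start, lies within the stronger replicate 2 peak. It was added to the words after the sequence had been seen and occurs in 3.62% of 32851 RefSeq promoters of 300 bp.

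Jun also had a site of another kind, in the coding sequence between 1215 and 1505 bp from the start. It was called in 5 libraries. RXR in LIF had 2 peaks there, of 14 and 15 fragments, and Nur77 had 17 fragments in LIF (−log10 p 15.4) and 10 in RA (−log10 p 8.43). FGFR1 in RA replicate 1 had 16 fragments (−log10 p 15.1) and H3.3 had 7 (−log10 p 6.53). FGFR1 replicate 2, which was the library with the highest counts at the Jun start, had no peak in the coding sequence, and neither did FGFR1 in LIF or RXR in RA. The site and the start therefore differed in which libraries marked them. No alternating tract lay in it. The stretch printed above held none of the words searched, but an SP1 core beside it lay within the 101 bp summit windows of the Jun coding peaks of RXR in LIF and of Nur77 in LIF and RA. Such windows held an SP1 core at 15.2%, 8.56% and 7.95% of all summits of these lists.

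Fos, the prototype of the immediate early genes, carried a strong FGFR1 peak at its start only in replicate 2. There were 81 fragments over a background of 3.76, the highest fold of all members at 17.2, and a −log10 p of 77.1 (rank 382), and the summit lay 34 bp downstream of the start in the 5′ UTR. Replicate 1 had no peak overlapping it. Its FGFR1 peaks at Fos lay at -1643 bp (14 fragments, −log10 p 11.4) and 1202 bp into the gene in the coding sequence (12 fragments, −log10 p 10.1). The upstream one shared 66 bp with the RXR peak in LIF, which had 12 fragments and a −log10 p of 7.53. The 2 replicates thus agreed that Fos held FGFR1 in the window, but not on the place.

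Fosb had FGFR1 in both RA replicates at a single site and no peak of any other antibody. The summits fell on the same base, 1284 bp downstream of the 5′ end of the gene, in the first intron of the main coding transcript and in an exon of a noncoding transcript. Replicate 1 had 14 fragments and a −log10 p of 11.4, and replicate 2 had 18 fragments and a −log10 p of 11.1. In contrast to the genes above, replicate 2 was no stronger here, and the peak stood at rank 11377 of 14082. The 101 bp around the summit, printed above, contained 2 short CRE words and 2 overlapping SP1 cores. The short CRE word lay within such windows in 9.89% and 12.1% of the summits of the lists of replicates 1 and 2, and the SP1 core in 13.3% and 27.2%.

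Fosl2 had FGFR1 at its start in replicate 2, with 28 fragments and a −log10 p of 17.5 at 129 bp downstream and with 17 fragments and a −log10 p of 7.88 at -262 bp. In replicate 1 the only FGFR1 peak lay 17059 bp into this gene of 22042 bp, in the coding sequence, with 10 fragments and a −log10 p of 9.0. RXR in LIF had a peak in the coding sequence 982 bp from the 5′ end (16 fragments, −log10 p 11.4) and one with a tract in an intron 8944 bp from it (12 fragments, −log10 p 10.1). The replicates again shared the gene without sharing the site.

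Fosl1 was the only member with RXR in RA, and differed from the other FOS genes in having no FGFR1 in replicate 2. A site about 2 kb upstream, with summits between -2082 and -1998 bp, was called in 5 libraries. It had 19 fragments for RXR in LIF (−log10 p 15.6), 15 for Nur77 in LIF (−log10 p 13.2), 16 for FGFR1 in RA replicate 1 (−log10 p 14.1), 15 for Nur77 in RA (−log10 p 13.7) and 9 for H3.3 (−log10 p 9.34). The lowest of these came from the shallowest library, and the site holds a tract. At the start itself, FGFR1 replicate 1 had 14 fragments (−log10 p 11.8) and H3.3 had 8 (−log10 p 8.16), with summits 17 bp apart. The RXR peak in RA lay apart from both, 1115 bp into the gene, with 9 fragments and a −log10 p of 7.71.

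**Figure D4:**
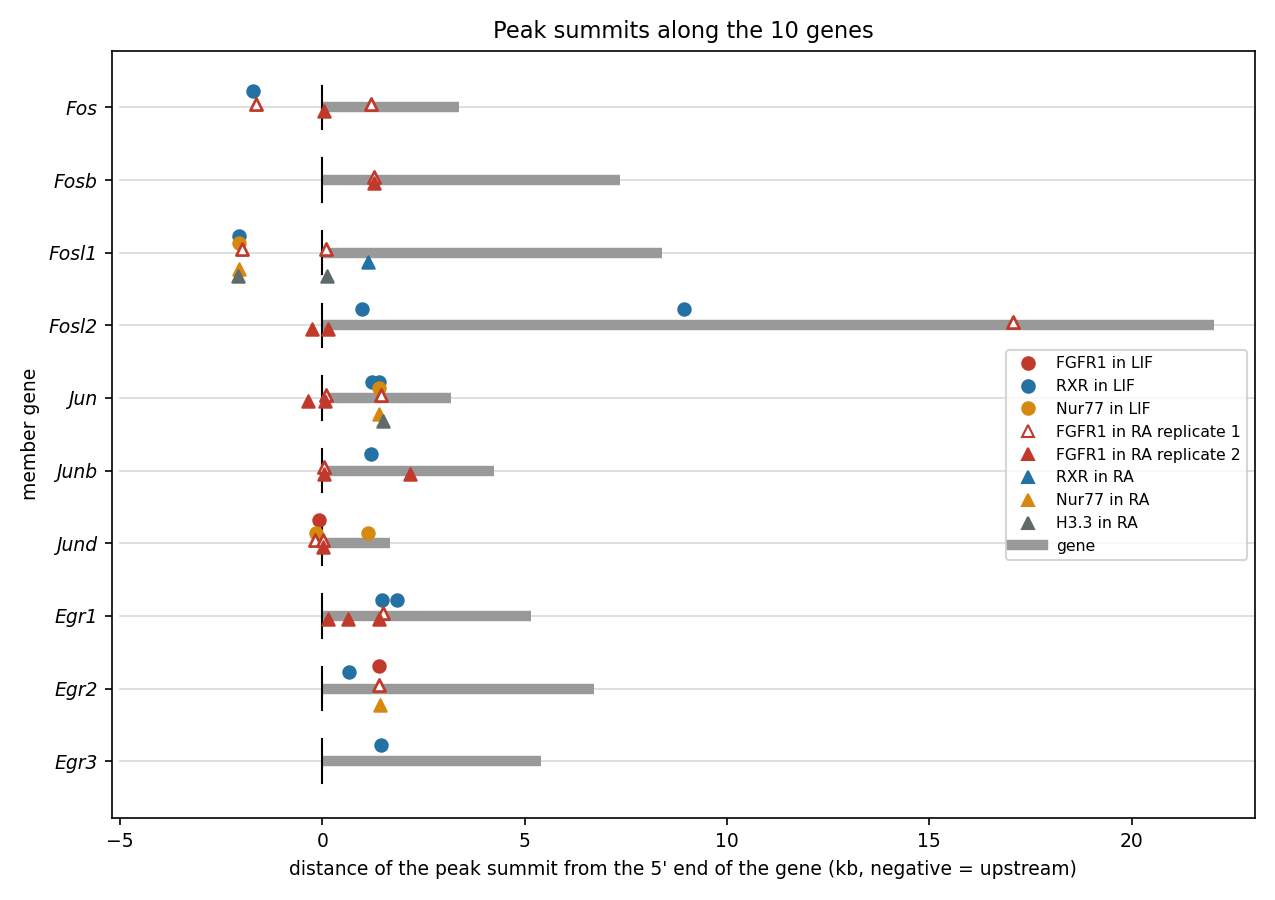
Summits of all 49 peaks along the 10 genes, as distance in kb from the 5′ end of the gene, with negative values upstream. Circles are LIF and triangles RA, the colour gives the antibody, open triangles are FGFR1 in RA replicate 1, grey bars are the gene bodies, and symbols are moved vertically by library only to separate them. FGFR1 triangles gather at the starts of Jun, Junb and Jund, the RXR circles lie mostly away from the 5′ ends, and 5 libraries meet about 2 kb upstream of Fosl1 and inside Jun.

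Egr1, the most widely used readout of ERK signalling among these genes, had 3 FGFR1 peaks in replicate 2. The strongest had 56 fragments and a −log10 p of 38.1, with its summit 26 bp downstream of the second transcript start, which lies inside the gene, and the peak at the first start had 31 fragments and a −log10 p of 14.5. The third, between them, had 18 fragments and a −log10 p of 5.58 and was the last but one of the list by rank. Replicate 1 had 13 fragments and a −log10 p of 10.6 at the second start, with its summit 92 bp from that of replicate 2. RXR in LIF was called at the same place with 17 fragments and a −log10 p of 9.97, and once more 1844 bp from the 5′ end, in the coding sequence, with 13 fragments and a −log10 p of 6.69. FGFR1 in RA and RXR in LIF thus marked the second start, in different states.

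Egr2, a regulator of hindbrain segments and myelination, was the other member with FGFR1 in LIF. A single intronic site held 17 fragments in that library, an enrichment of 9.92-fold and a −log10 p of 17.8, which was the highest −log10 p of any member outside FGFR1 replicate 2. Its summit there lay at -985 bp from a protein-coding start inside the gene, so the site is counted among those near a start. FGFR1 in RA replicate 1 had 17 fragments there (−log10 p 14.9) and Nur77 in RA had 15 (−log10 p 13.3), and the 3 summits lay within 8 bp. FGFR1 replicate 2 had no peak at Egr2. RXR in LIF had its peak elsewhere, 664 bp from the 5′ end, with 18 fragments and a −log10 p of 11.9. Egr3, a relative of Egr1 with roles in muscle spindles and lymphocytes, had 1 peak in all 8 lists, for RXR in LIF, with 12 fragments and a −log10 p of 7.80. It was the only member without FGFR1.

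The sites at Egr2 and Fosl1 that several antibodies shared are alternating purine-pyrimidine tracts, given here with the longest run in capitals and 15 bases on either side. In the reference genome the run was 48 bp at Egr2 and 33 bp at Fosl1, and its length in the cells used was not measured.
Egr2 intron, chr10:67536846-67536923, plus strand: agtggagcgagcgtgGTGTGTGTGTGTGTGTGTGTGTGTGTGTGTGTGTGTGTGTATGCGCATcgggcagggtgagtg
Fosl1 upstream, chr19:5445491-5445553, plus strand: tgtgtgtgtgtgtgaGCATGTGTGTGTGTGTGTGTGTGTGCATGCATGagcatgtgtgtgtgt
Of the 49 peaks, 9 held a tract, in 3 sites (Fosl1, Fosl2 and Egr2). Without tract peaks, FGFR1 in LIF was left with 1 gene (Jund, background 21.0%) and Nur77 in RA with 1 (Jun, background 37.5%), and FGFR1 in RA had 8 genes in replicate 1 (background 62.0%) and 7 in replicate 2 (background 53.4%). The part of such repeats in the signal was not tested.

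Sharing of sites between antibodies was uneven. The 49 peaks fell into 27 sites, of which 17 were called in 1 library, 10 in at least 2 and 3 in at least 4 (the Jund start, the Jun coding sequence and the Fosl1 tract). In RA replicate 1, FGFR1 overlapped an RXR or Nur77 peak of the same state at 3 genes (Fosl1, Jun and Egr2, background 38.3%), at the tracts and the coding sequence. The overlap at Jun was only 12 bp, and with an overlap of 50% of the shorter peak 2 genes were left, those with the tracts. In replicate 2 FGFR1 overlapped such a peak at 0 genes (background 23.7%). None of the strong FGFR1 peaks at the starts of Fos, Jun, Junb, Jund and Egr1 in RA thus overlapped a receptor peak from RA. With RXR in RA at 1 of the 10 genes and Nur77 in RA at 3, there were few peaks to overlap. Against the receptor lists from LIF, the replicate 2 peak shared 136 bp with Nur77 at Jund and 135 bp with RXR at Egr1.

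The replicates of FGFR1 in RA overlapped at 5 genes (Fosb, Jun, Junb, Jund and Egr1), against 37.3% of all genes. The distance between the nearest summits at these was 0 bp at Fosb and Jund, 7 bp at Junb, 22 bp at Jun and 92 bp at Egr1, and a second overlapping pair at Jund lay 202 bp apart. The nearest pair per gene had a median distance of 49 bp over the 8185 protein-coding genes with such a pair, 12.8% of them within 10 bp. The distance lay below that median at 4 of the 5 genes. It was not an agreement in height, since the ratio of fragments between the replicates differed from gene to gene as given above.

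The words of the known regulators were counted in the 300 bp RefSeq promoters, of which 7 of the 10 genes had an entry (not Fosl1, Egr1 and Egr3). A gene was counted when any of its promoters held the word, and the shares beside the counts are those of all 27025 genes in the table, taken in the same way. Egr2 had 5 starts in the table and the others 1 each. The short CRE word lay in 4 of the 7 (Fos, Fosb, Junb and Egr2), against 23.0%, and the SP1 core in 5 (Fos, Fosb, Fosl2, Jun and Egr2), against 38.2%. A CArG box was found in Egr2 (1.81%) and the EGR word (GCGTGGGCG or GCGGGGGCG) in Fosb and Fosl2 (3.93%). CArG boxes outside these 300 bp windows, or at genes without an entry, were not counted here. The count therefore does not show that the other genes lack one. None of the 7 held the AP-1 word (TGACTCA or TGAGTCA, 5.95%), the ETS core CCGGAAG (9.93%), the nuclear receptor word AGGTCA (18.1%) or the Nur77 word AAAGGTCA (1.7%) in these windows. The full CRE (2.03%) was in none of the windows either, but that of Jund lies around the RefSeq start at -1210 bp and does not reach the CRE printed above, at -214 bp from the GENCODE start. A match is a run of letters and not a shown site. At the summits, AGGTCA was in 0 of 11 windows of 101 bp for RXR in LIF, 0 of 4 for Nur77 in LIF and 0 of 3 for Nur77 in RA. The lists as a whole held it at 4.61%, 4.68% and 4.55% of their summits, so that so few peaks say nothing on its presence. One FGFR1 summit of Egr1 in replicate 2 held it, as did 3.69% of that list.

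Other genes of the same response were counted by the same windows. The shares of all protein-coding genes to set beside these counts are 28.3%, 64.6% and 53.8% for FGFR1 in LIF and in RA replicates 1 and 2, 54.4% and 35.0% for RXR in LIF and RA, 41.7% and 43.9% for Nur77, and 26.5% for H3.3. Of 20 other immediate early genes, 17 had FGFR1 in RA replicate 1 and 17 in replicate 2, against 7 in LIF. An RXR peak was present at 12 in ESCs and 6 in NCs, a Nur77 peak at 8 and 7, and an H3.3 peak at 6. The direction of the FGFR1 and RXR counts between the states was that of the 10 genes, and of all protein-coding genes. Egr4, the remaining EGR gene, had FGFR1 in LIF (11 fragments, −log10 p 10.0) and in RA replicate 1 (up to 19 fragments, −log10 p 16.3) but not in replicate 2, with RXR in LIF and Nur77 in RA close by.

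The genes of the NR4A receptors, which are immediate early genes too, also had FGFR1 in both RA replicates and not in LIF, as had 25.3% of all protein-coding genes. Peaks of the 2 replicates overlapped only at Nr4a3. The highest counts given next come from different places in the 2 replicates. Nr4a1, which encodes Nur77, had 37 fragments and a −log10 p of 27.3 in replicate 2, while the highest peak in replicate 1 had 12 fragments and a −log10 p of 8.76. Nr4a2 had at most 11 and 13 fragments in replicates 1 and 2, and Nr4a3 had at most 13 and 26. Nur77 itself was called at Nr4a1 in LIF (11 fragments, −log10 p 8.14) and at Nr4a3 in both states, with 13 fragments in LIF and up to 12 in RA.

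The upstream regulators, among them SRF, the ETS partners, CREB and the kinases ERK, RSK and MSK, included genes marked in every library. Of 15 such genes, 9 had FGFR1 in LIF, 14 and 12 in RA replicates 1 and 2, and Mrtfa, Mrtfb and Creb1 had a peak in all 8 lists. Gene length, which widens the window, was not taken into account in these counts. RXR marked 12 in LIF and 6 in RA, Nur77 10 in either state and H3.3 8. Srf, in contrast, had 2 weak FGFR1 peaks in replicate 1 (11 and 9 fragments) and a Nur77 peak in RA (16 fragments, −log10 p 13.0), and nothing in LIF. Among 14 dimer partners and co-repressors, 3 had FGFR1 in LIF (Atf4, Atf7 and Jdp2), 14 in RA replicate 1 and 10 in replicate 2. RXR was found at 8 in ESCs and at 4 in NCs (Atf2, Atf3, Atf4 and Batf2), Nur77 marked 8 and 7, and Atf4 was marked in all 8 lists. Atf3 is counted both here and among the 20 other immediate early genes.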

How the data were processed

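ChIP-seq peak lists of 8 libraries were used. According to the study's methods, the authors aligned reads to mm10 with Bowtie 1.0, kept reads with a single position, and called peaks with MACS2 per library, without pooling, at a p limit of 1e-05; the commands name no control library. The deposited fold is the ratio of summit pileup to local background, with a pseudocount of 1 in both. The deposited −log10 p-value and −log10 q-value belong to the summit, while the deposited score, the −log10 p multiplied by 10 and cut to a whole number, was not used. Whole fragments and background were solved from fold and −log10 p under the Poisson tail (difference at most 0.0001 for nearly all peaks), after a test on simulated data. Lowest background over fragment length gave the depth per kb.

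Groups came from the sample titles. Windows used GENCODE M21. Peaks were matched to each other by 1 bp, as in the methods, and to windows also by 1 bp, where the methods ask for 20 bp. All members are named with every peak; other listed genes are counted, and named where 5 or fewer had a peak or 1 had it in all lists, with Egr4, Srf and Nr4a1 to Nr4a3 always named. The H3.3 count for the dimer partners is not reported here. No test was made, since 6 of the groups have 1 library. The members, lists and alternatives were chosen with earlier results of these data known. Promoter sequences came from RefSeq (GRCm38.p6), others from the GRCm38.p6 genome. Work was done in Python 3.11.15 with numpy 2.4.6, pandas 2.3.3 and scipy 1.17.1.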

Additional observations from a re-analysis of the deposited data

Results flagged for a closer look

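In the full lists, the counts of these genes with FGFR1 and with RXR differed between the states in opposite directions. The number of genes with a peak was 7 higher in RA than in LIF for FGFR1 replicate 1 and 5 higher for replicate 2, whereas for RXR the difference of RA minus LIF was -7. The difference between the factors was not tested, because there was 1 LIF library for each and 1 RA library for RXR. All protein-coding genes moved in the same directions, from 28.3% to 64.6% and 53.8% for FGFR1 and from 54.4% to 35.0% for RXR. Inferred depth ran the same way. Background fragments per kb were 2.71 for FGFR1 in LIF and 4.16 and 6.78 in RA replicates 1 and 2, and 7.09 and 1.87 for RXR in LIF and RA. As given above, the difference for RXR cannot be told apart from that in depth.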

How the results depend on the processing

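Of 162 recomputed values, 133 stayed within 1.5 times the main count or within the spread of the replicates, and 29 moved. Shares of all protein-coding genes are given above for some of these settings only. Where that share is missing, a changed count cannot be read as particular to these genes. With a −log10 p of at least 10, RXR had 4 genes in LIF, 4 in LIF and not in RA, and 0 in RA, H3.3 had 0, and Nur77 in LIF and not in RA had 2. With the 10634 strongest peaks of each list, RXR had 2 genes in LIF, 2 in LIF and not in RA, and 0 in RA, and Nur77 in LIF and not in RA had 2. In the same setting FGFR1 in LIF kept 2 genes, while FGFR1 in RA had 0 in replicate 1 and a mean of 3 over the replicates. FGFR1 in RA then had 0 genes with overlapping replicates, 0 on an RXR or Nur77 peak and 0 in both replicates and not in LIF. Within 1 kb on either side of starts, RXR had 5 genes in LIF and 1 in RA and not in LIF, Nur77 had 1 in each state, H3.3 had 1, and FGFR1 of replicate 1 lay on a receptor peak at 1. Without gene bodies H3.3 had 1. Without tract peaks FGFR1 in LIF, Nur77 in RA, FGFR1 of replicate 1 on a receptor peak and RXR in RA and not in LIF each had 1 gene, and Nur77 in RA and not in LIF had 0. With an overlap of 50% of the shorter peak, FGFR1 in LIF lay on a receptor peak at 0 genes. Scaled to the depth of RXR in RA, an alternative chosen after seeing the data, RXR in LIF had 5 or 0 genes, whereas FGFR1 in RA scaled to the depth of FGFR1 in LIF kept 9 genes in replicate 1 and 6 or 7 in replicate 2. In these cases the smaller number of peaks or the narrower window admitted is part of the setting, and the cause was not tested further. Leaving out 1 FGFR1 library from RA gave 7 to 9 genes. A −log10 q of at least 2, protein-coding transcripts alone and summits within 100 bp moved no count, nor did a minimum of 20 bp shared by peak and window, added after seeing the data. No paired analysis was possible because the groups compared share fewer than 2 replicate numbers. Depth was inferred, and at 1.27 to 2.71 background fragments per kb a peak can be missed in H3.3, RXR in RA or FGFR1 in LIF.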
